A study of Mus musculus with 8 samples.

Results

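The NRF2 antioxidant genes, 10 in number, were read from liver arrays of 8 mice. In limma 2 of the 10 differed between the genotypes at an adjusted p under 0.05, beside 6.69% of all genes. Srxn1 was 1.59-fold lower and Gpx2 1.82-fold higher in livers with TAK1 and caspase 8 knocked out in parenchymal cells than in the other livers. Those had the same knockout of TAK1 with a Rip3-/- genotype. Neither call held with variances estimated separately for each group, and that of Gpx2 was lost when 1 particular array was left out. The genes were chosen by symbol: the 2 regulators Nfe2l2 and Keap1, and the 8 targets Nqo1, Hmox1, Gclc, Gclm, Srxn1, Txnrd1, Slc7a11 and Gpx2. All 10 were measured, out of 19560 genes with a value. The label "target" fits 8 of them, since Nfe2l2 encodes NRF2 itself and Keap1 its inhibitor. Each gene's value came from the probe sets annotated with its symbol and no other.

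Total RNA was taken from snap-frozen livers of male mice aged 6 weeks, with 1 Affymetrix array per mouse. The 4 Tak1/Casp8 mice were double knockouts of Tak1 and Caspase8 in LPC, the liver parenchymal cells. The 4 Tak1/Rip3 mice had the LPC knockout of Tak1 together with a Rip3-/- genotype. TAK1 loss in LPC was therefore common to all 8 livers, and livers with intact TAK1 were not analysed here, so a gene higher in Tak1/Casp8 may equally be read as lower in Tak1/Rip3. Loss of Caspase8 is limited to LPC in the labels and that of Rip3 is not. This difference in extent cannot be told apart from the genotypes. The labels do not name the Cre driver, litter or batch, and any such difference between the genotypes cannot be told apart from them. The stated aim was to find genes that apoptotic and necrotic signalling regulate differently.

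NRF2 is a transcription factor that KEAP1 holds in the cytosol and passes to the proteasome. Oxidants and electrophiles modify KEAP1, NRF2 then accumulates, pairs with a small MAF protein and binds antioxidant response elements in DNA. In liver the pathway is known for the supply of glutathione, the reduction of peroxides and quinones, and the breakdown of haem.

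The arrays were alike in overall level, with medians of 8.06 to 8.16 and lower quartiles of 6.47 to 6.52 on the log2 scale. The least correlated arrays of their groups were Tak1/Casp8 replicate 4 and Tak1/Rip3 replicate 2 (mean r with the own group 0.985 and 0.987 across genes). Of the targeted genes, Casp8 and Ripk3 followed the labels. Casp8 averaged 9.97 ± 0.13 in Tak1/Casp8 livers and 11.27 ± 0.13 in Tak1/Rip3 livers (SD, n = 4 each), and Ripk3, the gene of Rip3, averaged 7.90 ± 0.09 and 6.92 ± 0.38 in the same order. With the brightest probe set in place of the median the difference of Ripk3 was -0.04. Map3k7, the gene of TAK1, averaged 9.85 ± 0.13 in Tak1/Casp8 and 9.93 ± 0.10 in Tak1/Rip3 livers. Both means lay above the upper quartile of every array (9.55 to 9.62). The gene was targeted in both groups, so this comparison cannot show its loss. The mean log2 level of 11 hepatocyte markers was 12.61 to 12.75 in Tak1/Casp8 and 12.54 to 12.63 in Tak1/Rip3 livers, above the upper quartile of every array (9.55 to 9.62).

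The 250 bases before the start of Srxn1 and of Gpx2 are shown because these were the 2 genes that passed the test. The sequences are those of RefSeq on GRCm38.p6, on the strand of each gene, and capitals mark matches to the AP-1 site TGANTCA and to TGANTCAGC, the longer form bound by NRF2 with small MAF proteins, on either strand.
Srxn1, chr2:152105274-152105523, plus strand: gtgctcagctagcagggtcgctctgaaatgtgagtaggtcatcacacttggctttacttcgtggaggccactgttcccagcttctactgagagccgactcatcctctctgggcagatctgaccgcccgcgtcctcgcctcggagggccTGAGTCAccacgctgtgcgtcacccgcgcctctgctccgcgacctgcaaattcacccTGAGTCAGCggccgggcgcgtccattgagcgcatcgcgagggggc
Gpx2, chr12:76795555-76795804, minus strand: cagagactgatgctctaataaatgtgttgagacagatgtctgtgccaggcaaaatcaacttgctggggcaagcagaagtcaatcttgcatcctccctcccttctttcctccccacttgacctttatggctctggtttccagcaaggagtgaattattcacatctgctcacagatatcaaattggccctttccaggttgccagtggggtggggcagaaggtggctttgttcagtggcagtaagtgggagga
Srxn1 held 2 AP-1 sites, at bases -102 to -96 and -45 to -39 from the gene start, and the nearer one extended to TGANTCAGC. None of the motifs searched has a match in this window of Gpx2. Among all 32851 RefSeq windows from 250 bases before to 50 after a start, 7.81% held TGANTCA and 1.19% TGANTCAGC. The longer pattern was added after the sequences were seen, so its match in Srxn1 beside the 1.19% is no test.

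A further pattern, the core of the antioxidant response element TGACNNNGC on either strand, was also looked up in the 10 such windows of the 8 genes that had one. Some sequences match both this core and TGANTCAGC, but the TGANTCAGC match in Srxn1 is not one of them. The core was found in 4 of the 10 windows, against 12.4% of all windows. Each match is given with 10 bases on either side because these are the stretches in which the core occurs. Capitals mark the core, which appears as its reverse complement in Gclm, Srxn1 and Txnrd1, where the match is on the other strand.
Nfe2l2, chr2:75704885-75704913, minus strand: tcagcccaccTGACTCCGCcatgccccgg
Gclm, chr3:122245413-122245441, plus strand: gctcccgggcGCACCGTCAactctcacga
Srxn1, chr2:152105542-152105570, plus strand: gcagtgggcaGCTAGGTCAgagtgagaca
Txnrd1, chr10:82859104-82859132, plus strand, one of 3 starts: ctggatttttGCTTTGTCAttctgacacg
The cores lay at bases -240 to -232 of Nfe2l2, -134 to -126 of Gclm, 29 to 37 of Srxn1 and -92 to -84 of Txnrd1, and none of them overlapped an AP-1 site. Of these 4 genes Srxn1 passed the test of the difference, while Nfe2l2, Gclm and Txnrd1 did not. A match of letters is a description and no evidence of binding.

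Each gene's value on an array is the median over its probe sets, in log2 units. A difference is the Tak1/Casp8 mean minus the Tak1/Rip3 mean, from limma's moderated fit over all genes. Of the 10 genes 1 was lower and 1 higher at a limma adjusted p under 0.05, while 4.05% of all 19560 genes were lower and 2.64% higher (6.69% in either direction). The groups did not overlap in the same 2 of the 10 genes, against 14.6% of all genes. Of the 10 differences 7 were negative, with a median of -0.17, while the median over all genes was 0.01 and 47.4% were negative. The 2 that passed went in opposite directions, and both encode enzymes that deal with peroxides. With variances estimated gene by gene and separately for each group, neither passed over all genes (adjusted p = 0.110 for Srxn1 and 0.129 for Gpx2).

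**Figure D1:**
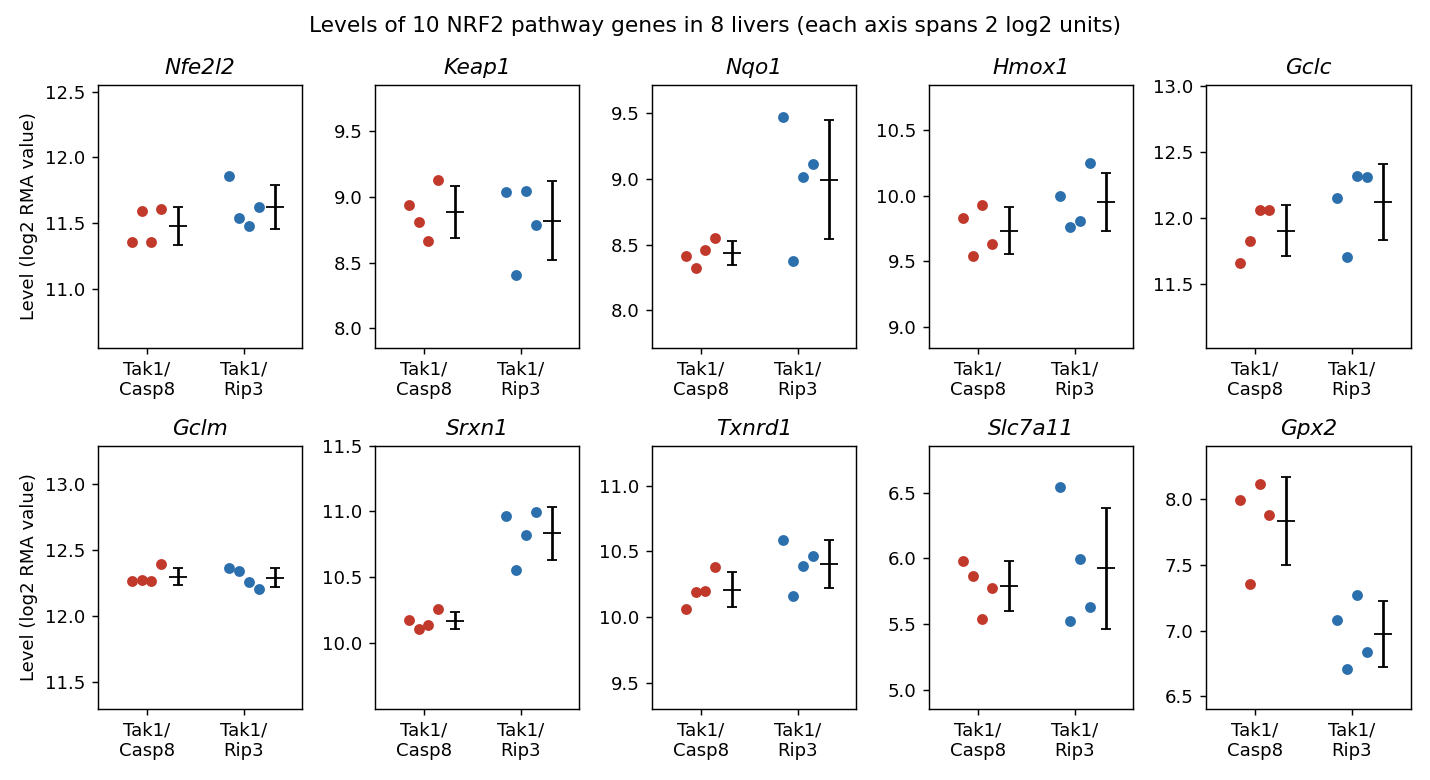
Log2 RMA levels of the 10 genes in each liver, Tak1/Casp8 (red) left of Tak1/Rip3 (blue), with the mean and SD of each group in black (n = 4 each) and every vertical axis spanning the same range. The groups are apart in Srxn1, where all Tak1/Casp8 values (10.10 to 10.25) lie below the lowest Tak1/Rip3 value (10.56), and in Gpx2, where all lie above.

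Srxn1 encodes sulfiredoxin, which restores peroxiredoxins that peroxide has over-oxidised. It read 10.18, 10.10, 10.14 and 10.25 in the Tak1/Casp8 livers, against 10.96, 10.56, 10.82 and 10.99 in the Tak1/Rip3 livers. All 4 Tak1/Casp8 values lay below all Tak1/Rip3 values, with a gap of 0.30, and the Tak1/Casp8 livers were closer to each other (SD 0.07) than the Tak1/Rip3 livers (SD 0.20). The difference was -0.66 ± 0.11 (SE, n = 4 per group, limma adjusted p = 0.00727), or 1.59-fold lower in Tak1/Casp8. It passed in each fit that left out 1 array (-0.76 to -0.61).

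All 7 probe sets of Srxn1 had negative differences, of -0.76 to -0.10. In the fit over 206316 single probe sets 3 of them passed, the only ones among the 99 probe sets of the 10 genes, while 1.11% of all probe sets were lower and 0.532% higher. In 5 of the 7 the groups did not overlap. Shares of all 206316 probe sets without overlap, or at an unadjusted p under 0.05, were not counted. Such counts therefore stand without a background, here and for the genes that follow. Leaving out any one of 5 arrays, Tak1/Casp8 replicate 1 or 3 or Tak1/Rip3 replicate 1, 3 or 4, left 0 of the 99 called by limma, with 15 to 20 of them at an unadjusted p under 0.05. The fit called 1 without Tak1/Casp8 replicate 4, and 5 without Tak1/Rip3 replicate 2.

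Gpx2 encodes a glutathione peroxidase, a selenoprotein best known from the gut epithelium. It read 8.00, 7.36, 8.12 and 7.88 in the Tak1/Casp8 livers, against 7.08, 6.71, 7.27 and 6.84 in the Tak1/Rip3 livers. All Tak1/Casp8 values lay above all Tak1/Rip3 values, but the gap was only 0.08, between Tak1/Casp8 replicate 2 and Tak1/Rip3 replicate 3. The difference was 0.86 ± 0.18 (SE, n = 4 per group, limma adjusted p = 0.0180), or 1.82-fold higher in Tak1/Casp8. Without Tak1/Rip3 replicate 4 it was 0.81 and did not pass (limma adjusted p = 0.0586).

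All 4 probe sets of Gpx2 had positive differences, of 0.48 to 1.37. None passed alone in limma (lowest adjusted p = 0.0980), though 4 of 4 had an unadjusted p under 0.05, and in 2 the groups did not overlap. The mean level of its dimmest probe set, 4.08, was under the lower quartile of every array, where RMA compresses differences.

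**Figure D2:**
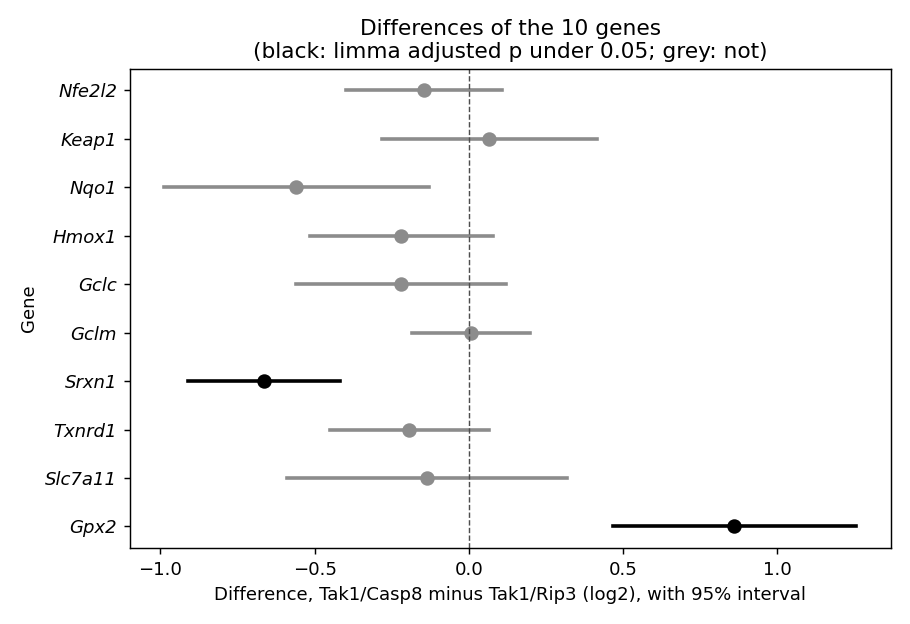
Differences of the 10 genes between the genotypes, Tak1/Casp8 minus Tak1/Rip3 on the log2 scale, as points with 95% intervals from limma, black where the adjusted p was under 0.05. Srxn1 (-0.66) and Gpx2 (0.86) are black and on opposite sides of 0, and the interval of Nqo1 (-0.99 to -0.13) misses 0 without an adjusted call.

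Nqo1 encodes a quinone reductase that is widely used as a readout of NRF2. It read 8.42, 8.32, 8.46 and 8.55 in the Tak1/Casp8 livers, against 9.47, 8.38, 9.02 and 9.11 in the Tak1/Rip3 livers. In 3 Tak1/Rip3 livers it stood above every Tak1/Casp8 liver, and in Tak1/Rip3 replicate 2 it stood among them. The difference of -0.56 ± 0.19 (SE, n = 4 per group, 95% interval -0.99 to -0.13) did not pass over all genes (limma adjusted p = 0.123). Without Tak1/Rip3 replicate 2 it was -0.76 and passed (limma adjusted p = 0.0104), and leaving out any other single array gave -0.60 to -0.40 with no call. All 7 probe sets had negative differences, of -0.74 to -0.39, 5 of them at an unadjusted p under 0.05 and none called (lowest limma adjusted p = 0.0538).

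Hmox1 encodes haem oxygenase 1, which opens the haem ring and releases iron, and is strongly expressed in macrophages that clear red cells. It read 9.83, 9.54, 9.93 and 9.63 in the Tak1/Casp8 livers, against 10.00, 9.76, 9.81 and 10.25 in the Tak1/Rip3 livers. The groups overlapped, and the difference of -0.22 (95% interval -0.51 to 0.08) did not pass (limma adjusted p = 0.393). Of its 8 probe sets 7 had negative differences. The one furthest down, at -1.07, was also its dimmest and did not pass (limma adjusted p = 0.146).

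Neither regulator passed. Nfe2l2 read 11.35, 11.59, 11.36 and 11.61 in the Tak1/Casp8 livers, against 11.86, 11.54, 11.48 and 11.62 in the Tak1/Rip3 livers. Its difference was -0.15, with a 95% interval of -0.40 to 0.11 (limma adjusted p = 0.517), so a change beyond 0.40 in either direction lies outside that interval. Keap1 read 8.94, 8.81, 8.66 and 9.13 in the Tak1/Casp8 livers, against 9.04, 8.41, 9.04 and 8.78 in the Tak1/Rip3 livers, a difference of 0.07 (95% interval -0.28 to 0.41, limma adjusted p = 0.859). The sign of Keap1 turned to -0.07 without Tak1/Rip3 replicate 2, which held its lowest value. NRF2 is controlled mainly through the stability and location of the protein, which an RNA level does not show.

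None of the 3 genes that supply glutathione passed. Gclm, the modifier subunit of glutamate-cysteine ligase, differed by 0.01 with the narrowest interval of the 10 genes, -0.18 to 0.20, and its 8 values lay between 12.20 and 12.39. Gclc, the catalytic subunit of the same enzyme, read 11.66, 11.83, 12.06 and 12.06 in the Tak1/Casp8 livers, against 12.15, 11.71, 12.32 and 12.31 in the Tak1/Rip3 livers. The 2 subunits make 1 enzyme, yet 16 of 17 probe sets of Gclc had negative differences while those of Gclm lay on both sides, 5 negative and 4 positive. The difference of Gclc, -0.22 (95% interval -0.56 to 0.12), did not pass (limma adjusted p = 0.464), and the difference between the subunits was not tested.

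Slc7a11 encodes the cystine importer xCT. It read 5.98, 5.87, 5.54 and 5.78 in the Tak1/Casp8 livers, against 6.55, 5.52, 6.00 and 5.63 in the Tak1/Rip3 livers. All but the value of Tak1/Rip3 replicate 1 lay under the lower quartile of the arrays, where small differences are compressed. The difference was -0.13 (95% interval -0.59 to 0.32, limma adjusted p = 0.766), and without Tak1/Rip3 replicate 1 it was 0.07.

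Txnrd1, the cytosolic thioredoxin reductase, had negative differences at 17 of 20 probe sets without a call. It read 10.06, 10.19, 10.20 and 10.38 in the Tak1/Casp8 livers, against 10.59, 10.16, 10.39 and 10.47 in the Tak1/Rip3 livers. The groups overlapped, and the difference of -0.19 (95% interval -0.45 to 0.06) did not pass (limma adjusted p = 0.387). Over all 10 genes 80 of the 99 probe sets had negative differences, against 49.7% of all probe sets. Probe sets of 1 gene read the same RNA and are not independent.

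**Figure D3:**
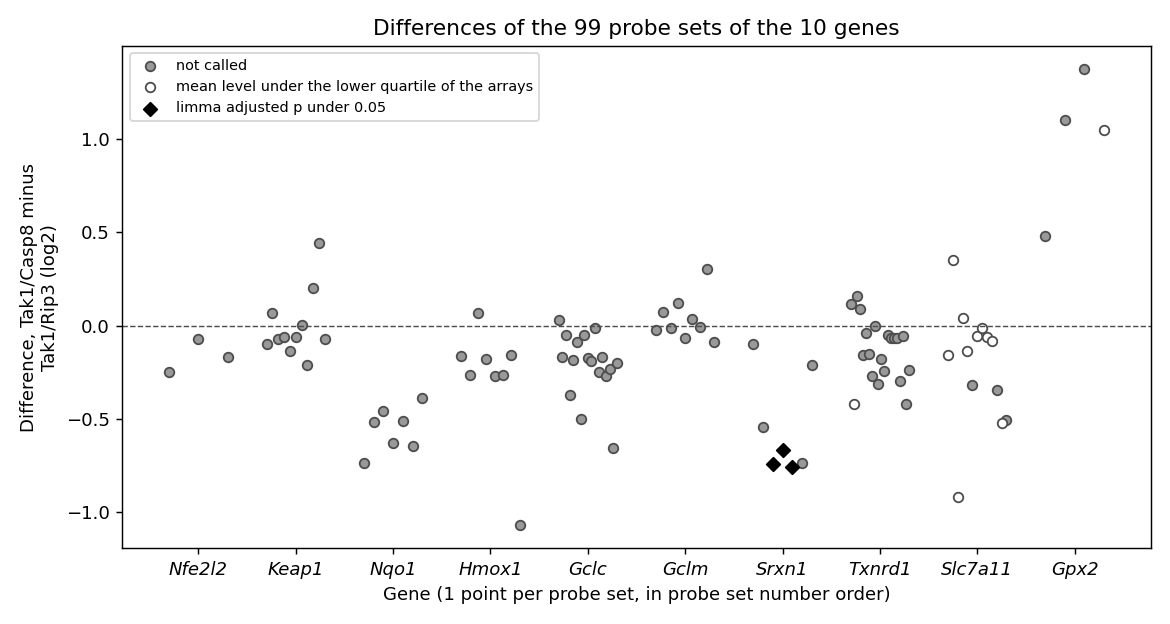
Difference of each of the 99 probe sets, Tak1/Casp8 minus Tak1/Rip3 on the log2 scale, by gene, with black diamonds for a limma adjusted p under 0.05 and open circles for a mean level under the lower quartile of the arrays. All 7 points of Srxn1 and of Nqo1 lie below 0, all 4 of Gpx2 lie above, and the 3 diamonds belong to Srxn1.

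Across the arrays Tak1/Rip3 replicate 1 held the highest value of 4 of the 10 genes (Nfe2l2, Nqo1, Txnrd1 and Slc7a11). Tak1/Rip3 replicate 2 held the lowest value of 3 (Keap1, Slc7a11 and Gpx2), and its Nqo1, Gclc and Txnrd1 lay within the Tak1/Casp8 range. Tak1/Casp8 replicates 1 and 2 held the lowest value of 3 genes each. The mean over the 10 genes was 9.67, 9.59, 9.67 and 9.77 in the Tak1/Casp8 livers, against 10.01, 9.51, 9.84 and 9.82 in the Tak1/Rip3 livers. In Srxn1 alone among the genes with negative differences did Tak1/Rip3 replicate 2 stay above all Tak1/Casp8 livers.

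**Figure D4:**
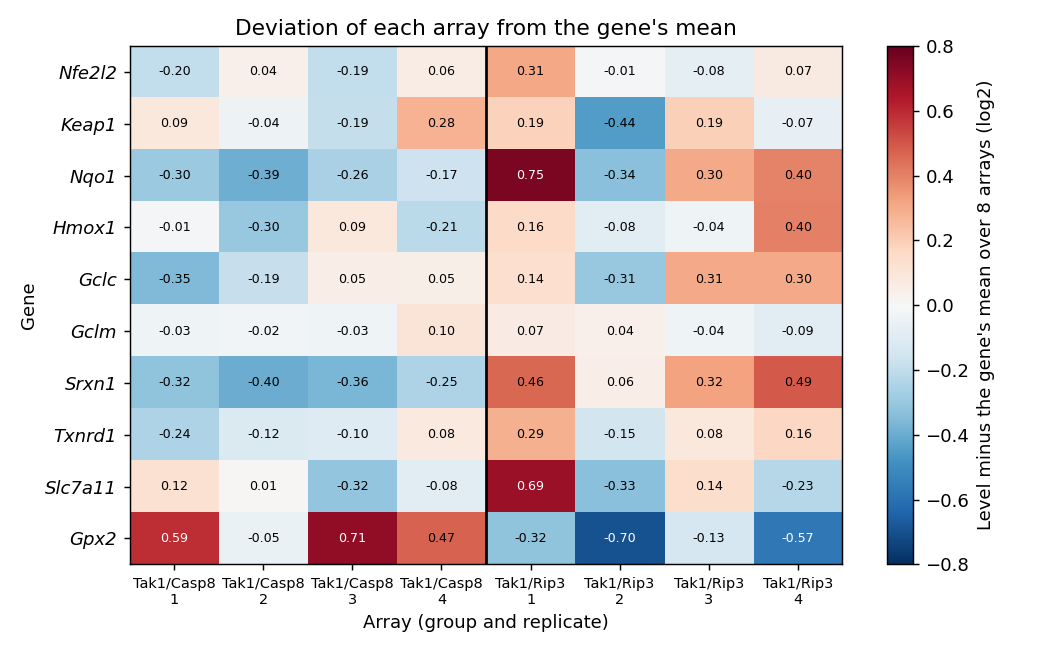
Level of each gene on each array minus the gene's mean over the 8 arrays, in log2 units, with Tak1/Casp8 arrays left of Tak1/Rip3 arrays (red above, blue below the mean). Srxn1 is negative in all Tak1/Casp8 arrays and positive in all Tak1/Rip3 arrays (0.06 in replicate 2), and Nqo1 is negative in the same arrays and in Tak1/Rip3 replicate 2 (-0.34).

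The array profile nearest to that of Srxn1 among all other genes was that of Golm2. Its root mean square distance was 0.06 over the 8 arrays, after each gene's mean had been taken off, and 1810062G17Rik (0.07) and Smc4, a subunit of the condensin complex (0.09), came next. These genes were picked for likeness to Srxn1 on the same arrays, so differences near that of Srxn1 follow from the choice. Golm2 differed by -0.68 ± 0.10 (SE, n = 4 per group, limma adjusted p = 0.00485), but by 0.17 with its brightest probe set. Smc4 differed by -0.71 and did not pass without Tak1/Casp8 replicate 2 or 3 or Tak1/Rip3 replicate 1 or 4 (limma adjusted p = 0.0522 to 0.0607).

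Partners and controllers of NRF2 gave 1 call among 15 measured genes (16 listed), beside 6.69% of all genes. Their median difference was 0.07. Bach2, a repressor related to the NRF2 competitor BACH1, read 7.22, 7.32, 7.25 and 7.40 in the Tak1/Casp8 livers, against 7.76, 7.64, 8.01 and 7.84 in the Tak1/Rip3 livers. It was lower in Tak1/Casp8 (-0.51, limma adjusted p = 0.0152), but with its brightest probe set the difference was 0.23 and did not pass, and the mean over its probe sets did not pass either (limma adjusted p = 0.0623). Further factors that bind the same elements had positive differences without a call: the small MAF genes Mafk (0.28, limma adjusted p = 0.118) and Mafg (0.27), and Bach1 (0.26).

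Other genes often listed as NRF2 targets gave 1 higher and 1 lower call among 27 measured (29 listed), beside 6.69% of all genes. Their median difference was -0.13, with 21 negative differences. At an unadjusted p under 0.05 there were 12 in limma, against 21.1% of all genes, but 5 with unmoderated variances, a test that called none of the 27. The matching share of all genes with unmoderated variances was not counted, so such counts stand without a background, here and in the lists below. Abcc3, a basolateral pump for conjugates, was raised 1.78-fold in Tak1/Casp8, with 12.13, 12.05, 12.26 and 12.04 in those livers, against 11.66, 10.92, 11.21 and 11.35 in the Tak1/Rip3 livers (limma adjusted p = 0.00880). Gstm2, a glutathione transferase with close copies that can share probes, was lower in Tak1/Casp8 (-0.51, limma adjusted p = 0.0274). That call ended without Tak1/Casp8 replicate 2 or 3 or Tak1/Rip3 replicate 1, 3 or 4 (limma adjusted p = 0.0536 to 0.0879), and the brightest probe set gave -0.17. The transferases Gstp1 (-0.31, limma adjusted p = 0.0774) and Ugt2b35 (-0.47, limma adjusted p = 0.0927) did not pass, though Gstp1 did under 6 alternatives and Ugt2b35 under 4, the mean over probe sets and array weights among both.

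**Figure D5:**
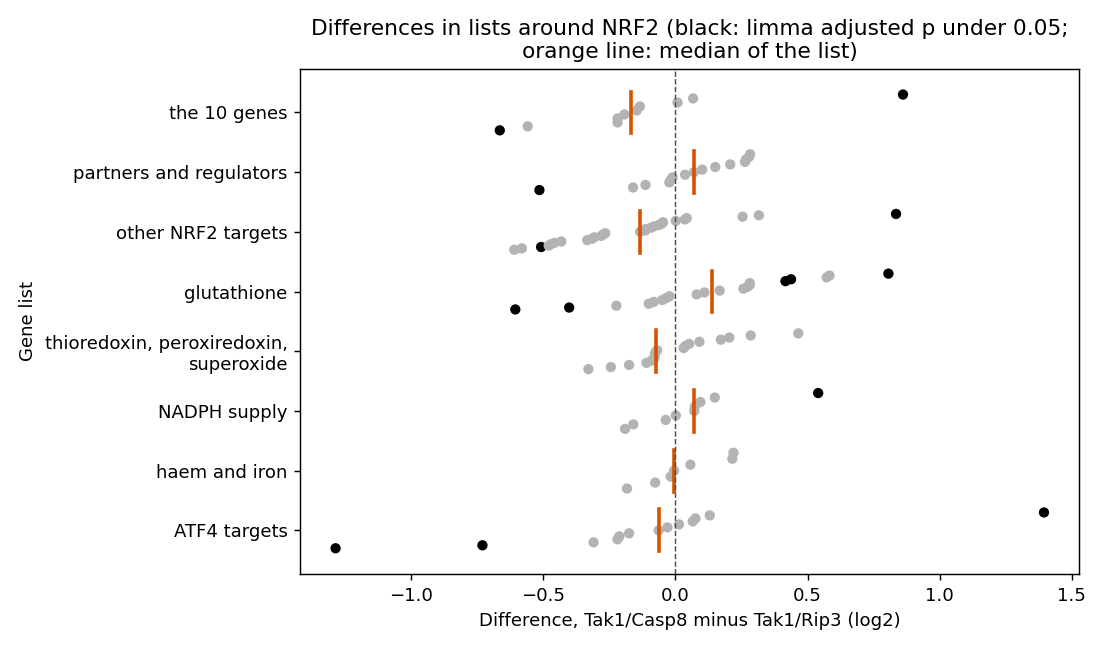
Difference of every measured gene in the lists around NRF2, Tak1/Casp8 minus Tak1/Rip3 on the log2 scale, black where the limma adjusted p was under 0.05, with the list's median as an orange line. The medians lie between -0.17 for the 10 genes and 0.14 for glutathione, and black points stand on both sides of 0 in each list that has more than 1.

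Genes of glutathione synthesis and recycling gave 3 higher and 2 lower calls among 20, 5 of 20 beside 6.69% of all genes, with a median difference of 0.14. None of the 5 passed with unmoderated variances, by which 9 of the 20 had an unadjusted p under 0.05. Chac1, which degrades glutathione, read 8.12, 8.20, 8.35 and 8.24 in the Tak1/Casp8 livers, against 6.98, 7.68, 7.44 and 7.58 in the Tak1/Rip3 livers, 1.75-fold higher in Tak1/Casp8 (limma adjusted p = 0.0103). Mat1a and Gnmt, which make and use the methyl donor from which cysteine can be derived, were higher by 0.44 and 0.42. Gpx7, a peroxidase of the endoplasmic reticulum, was lower (-0.61, limma adjusted p = 0.00841), and so was Gss, which completes glutathione (-0.40, limma adjusted p = 0.0210). The Gss call ended without Tak1/Casp8 replicate 1 or 2 or Tak1/Rip3 replicate 1, 3 or 4 (limma adjusted p = 0.0532 to 0.0639), and that of Mat1a without Tak1/Casp8 replicate 1, 2 or 3 or Tak1/Rip3 replicate 1 or 4 (0.0622 to 0.0817). The Gnmt call ended without any 1 array except Tak1/Casp8 replicate 4 or Tak1/Rip3 replicate 2 (0.0594 to 0.0955). None of Gss, Mat1a and Gnmt passed with its brightest probe set.

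Among 18 genes of thioredoxins, peroxiredoxins and superoxide enzymes limma called 0, with 3 at an unadjusted p under 0.05, and the test with unmoderated variances called 0, also with 3. The nearest was Prdx2, a cytosolic peroxiredoxin (0.47, limma adjusted p = 0.0717), which passed under 6 alternatives such as the mean over its probe sets, followed by Prdx4 (-0.24), Txnip, the thioredoxin inhibitor (-0.33), and Txn2 (-0.18). Peroxiredoxins are what sulfiredoxin acts on, and Prdx4 had no firm sign, with 0.045 by its brightest probe set. Of 9 genes of NADPH supply (10 listed) limma called 1, beside 6.69% of all genes. Aldh1l1, a folate dehydrogenase that yields NADPH, was higher in Tak1/Casp8 (0.54, limma adjusted p = 0.0100), but did not pass with its brightest probe set (0.27). Idh2 (-0.16), Taldo1 (-0.19) and Pgd (0.15) did not pass.

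In haem breakdown and iron storage limma called 0 of 7 measured genes (8 listed), with 0 at an unadjusted p under 0.05, and the test with unmoderated variances called 0, with 1 at an unadjusted p under 0.05. Hmox2, the constitutive haem oxygenase, differed by 0.22, Fech, the last enzyme of haem synthesis, by 0.22, Abcb6 by -0.18 and the ferritin Fth1 by 0.06. Hmox1 thus stood beside 7 other genes of haem and iron handling that did not pass either.

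Targets of ATF4, a stress factor that also acts on Slc7a11, gave 1 higher and 2 lower calls among 13, beside 6.69% of all genes in either direction, with a median difference of -0.06. None of the 3 passed with unmoderated variances, by which 4 of the 13 had an unadjusted p under 0.05. Asns, asparagine synthetase, read 11.83, 12.07, 11.60 and 11.61 in the Tak1/Casp8 livers, against 11.16, 10.51, 9.93 and 9.92 in the Tak1/Rip3 livers, 2.63-fold higher in Tak1/Casp8 (limma adjusted p = 0.0103). Vldlr, a lipoprotein receptor, was 2.44-fold lower (limma adjusted p = 0.00254), but by -0.13 with its brightest probe set. Psat1, an enzyme of serine synthesis, was lower by -0.73, a call that ended without Tak1/Casp8 replicate 1 or 2 or Tak1/Rip3 replicate 1, 3 or 4 (lowest limma adjusted p = 0.0838), and its brightest probe set gave -0.11. Shmt2 (-0.22) did not pass.

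In whole liver, fewer cells of a type and less RNA per cell cannot be told apart, so markers of the cells that could carry these transcripts are given beside them. Calls in each marker list, here and below, stand beside 6.69% of all genes called in either direction. Nqo1 is known from bile duct cells, and Gpx2 from other epithelia. Of 8 measured bile duct markers (10 listed), Spp1 was higher in Tak1/Casp8 (0.97) and Prom1 lower (-1.76), while Epcam (-1.05) and Krt7 (-0.30) did not pass. Epcam passed without Tak1/Casp8 replicate 1 (-1.32, limma adjusted p = 0.0182) and with genes under the 30th percentile left out, and Krt7 was 0.24 by its brightest probe set. The mean level of the 8 was 8.82, 8.06, 8.56 and 8.18 in the Tak1/Casp8 livers, against 8.77, 8.58, 8.74 and 8.56 in the Tak1/Rip3 livers. Tak1/Casp8 replicate 2, lowest of its group in Gpx2, was lowest in this mean and in Epcam. In Spp1, Krt7 and Prom1 the lowest of the group was Tak1/Casp8 replicate 4, and replicate 2 was the highest in Prom1. The part of these cells in the Gpx2 difference was not tested.

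Macrophage and Kupffer cell markers, the cells that carry much of Hmox1, gave 1 call among 12, Cd163 (1.98), and their mean level was 10.04 to 10.43 in the Tak1/Casp8 and 9.87 to 10.29 in the Tak1/Rip3 livers. Cd68 (-0.41), Clec4f (0.35) and C1qc (-0.29) did not pass. Stellate cell markers gave 3 lower calls, Hand2 (-0.75), Lrat (-0.59) and Reln (-0.65), and 1 higher, Colec11 (0.39), among 10, beside 6.69% of all genes in either direction. None of the 4 passed with unmoderated variances. The mean level of the 10 did not overlap between the groups, with 9.61 to 10.15 in the Tak1/Casp8 and 10.22 to 10.37 in the Tak1/Rip3 livers. That mean was on the same side as Srxn1. So was the mean of the T and NK cell markers, which did not overlap either. It was 6.24 to 6.37 in the Tak1/Casp8 and 6.40 to 6.59 in the Tak1/Rip3 livers. The part of either cell type in the Srxn1 difference was not tested. How often the mean of a list of genes is without overlap was not counted. The mean of the glutathione genes did not overlap either, and lay on the other side. It was 10.26 to 10.34 in the Tak1/Casp8 and 10.12 to 10.21 in the Tak1/Rip3 livers. Hand2 did not pass with its brightest probe set (-0.40), and Reln did not without Tak1/Casp8 replicate 2 or any 1 Tak1/Rip3 array. Colec11 passed in 1 of the 8 fits that left out an array, that without Tak1/Casp8 replicate 3.

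Among 9 neutrophil markers Lcn2, which hepatocytes also make, and Cxcr2 were higher (0.84 and 0.87), with list means of 7.16 to 7.71 in the Tak1/Casp8 and 6.84 to 7.33 in the Tak1/Rip3 livers. Among 7 markers of B and plasma cells Cd79a (-1.38) and Ms4a1 (-1.11) were lower and Jchain (2.03) was higher, and the means were 6.69 to 6.85 in Tak1/Casp8 and 6.69 to 6.94 in Tak1/Rip3. Of 11 hepatocyte markers only Serpina1a, which rests on 1 probe set and has close copies, passed (0.96), and not without Tak1/Casp8 replicate 1 or 2 or Tak1/Rip3 replicate 1 or 4. Tat, a liver enzyme of tyrosine breakdown, did not pass (0.50, limma adjusted p = 0.0652) but did under 8 alternatives, among them without Tak1/Rip3 replicate 2 (0.64). With unmoderated variances Cd163, Prom1 and Cd79a were the only called genes of the 9 marker lists. With the brightest probe set Lcn2 (0.33), Cd79a (-0.44) and Ms4a1 (-0.16) did not pass. Limma called 0 of 8 endothelial, 0 of 10 T and NK cell and 0 of 5 erythroid markers, with 2, 3 and 1 at an unadjusted p under 0.05, and the test with unmoderated variances called 0 in each of these lists, with 3, 3 and 0.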

How the data were processed

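The deposited values are log2 intensities per probe set. RMA made them, as the authors state per the submitters' processing notes, and no version or detection call is given. RMA aligns the arrays and compresses differences near background. Of 223771 probe sets, 206316 had exactly 1 symbol in the platform annotation and were used. Old symbols (2571) were updated through a RefSeq gene table of GRCm38.p6. A gene's value is the median over its probe sets on each array, which gave 19560 genes.

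The test was limma 3.58.1 (R 4.3.3, lmFit and eBayes, two-sided) with 1 term for the genotype over all 8 arrays. P-values were adjusted by Benjamini-Hochberg over all genes, or over all 206316 probe sets, and called under 0.05. The script was tested on simulated data. Arrays have no depth, and 4 per group limit the precision.

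The 10 genes and the lists, 7 around NRF2 and 9 of cell type markers, were chosen with earlier results of these data known. Genes named besides the 10 are the up to 4 of lowest adjusted p in each list, the 3 nearest profiles and the targeted genes, and Gnmt, named after its value was seen. The motif TGANTCAGC was added after the sequences were seen.

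Alternatives were quantile normalisation, a common array median, the mean or brightest probe set, exclusion of genes under the 30th or 50th percentile of mean level, trend and robust settings, array weights, unmoderated variances for each group (the Welch test) and omission of each array. Omission of both least correlated arrays was chosen after seeing the data. Figures used matplotlib 3.10.9.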

Additional observations from a re-analysis of the deposited data

Results flagged for a closer look

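Among the named genes, 9 of 162 groups of 4 arrays had 1 array far from the other 3 by Dixon's test, which chance gives in about 1 of 20 groups. Of the 10 NRF2 genes this concerned Gclm alone, at 12.39 in Tak1/Casp8 replicate 4 with the other 3 at 12.26 to 12.27, a small step in a narrow group. Tak1/Rip3 replicate 1 stood apart in Ripk3 (6.36), Gpx7 (8.14) and Gss (10.96). The other arrays that stood apart were Tak1/Rip3 replicate 2 in Hmox2 (9.43), Tak1/Casp8 replicate 4 in Lcn2 (13.15), Tak1/Casp8 replicate 2 in Nkg7 (6.90) and Cd79a (4.70), and Tak1/Rip3 replicate 3 in Slc4a1 (7.94).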

How the results depend on the processing

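Of 177 values of the 10 genes under the alternatives, 158 kept direction and side of the threshold, 4 calls were lost (Srxn1 1, Gpx2 3), 3 gained (all Nqo1) and 12 changed sign, all in uncalled genes. The 2 called genes became 0 with the Welch test (2 at an unadjusted p under 0.05, Srxn1 adjusted p = 0.110 and Gpx2 0.129, from variances estimated gene by gene), 1 with the filter at the 50th percentile, which left Gpx2 out, and 1 to 3 without single arrays. Gpx2 was also lost without both least correlated arrays (0.76, adjusted p = 0.0684). Nqo1 passed with array weights (-0.68), without Tak1/Rip3 replicate 2, and without both arrays (-0.80). All genes called, 1308, became 759 with the brightest probe set, 115 with the Welch test and 706 to 1347 without single arrays. They became 1957 with array weights, 1804 with the mean over probe sets and 1334 to 1566 under the remaining alternatives. The 3 called probe sets became 5 with a filter on dim probe sets, which tests fewer of them, and 0 to 5 without single arrays. Keap1 (0.07) became -0.060 with the brightest probe set, -0.038 with array weights, -0.070 to 0.14 without single arrays (negative without Tak1/Casp8 replicate 4 or Tak1/Rip3 replicate 2), and -0.15 without both. Gclm (0.01) became -0.0056 with quantile normalisation, -0.090 with the brightest probe set, -0.0082 without both arrays, and -0.024 to 0.032 without single arrays. Slc7a11 (-0.13) ran from -0.27 to 0.073 without single arrays, positive only without Tak1/Rip3 replicate 1. With the brightest probe set Ripk3 became -0.036, Map3k7 0.088 (0.094 with the mean), Bach2 0.23 and Golm2 0.17. Except where stated, the cause was not tested. No paired analysis was possible because the labels pair no mice across the groups.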
